A study of Mus musculus with 8 samples.

Results

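Platelet-derived growth factor (PDGF) receptors and ligands were followed in cells sorted from gastrulating mouse embryos. The members were fixed by symbol as 2 receptor genes (Pdgfra, Pdgfrb) and 3 ligand genes (Pdgfa, Pdgfb, Pdgfc). Every probe set annotated with exactly 1 of these symbols was taken, without regard to its values. Of the 5 genes, 4 had a probe set, among 17097 genes named on the array. They had 6 probe sets among 45141: 1 for Pdgfra, 1 for Pdgfrb, 2 for Pdgfb and 2 for Pdgfc. Pdgfa had 0 named probe sets and was not analysed here. A further 15588 probe sets had no gene name in the annotation used, so these genes may have probe sets that were not read.

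All embryos carried a reverse tetracycline transactivator driven by Mesp1 and a tetracycline-responsive nuclear reporter (Mesp1-rtTA/Teto-H2B-GFP). The transcription factor gene Mesp1 is switched on as cells leave the streak as mesoderm, among them future heart cells, and GFP marked cells in which this reporter system was active. At embryonic day (E) 6.5 and E7.5, 50 living GFP+ cells or 50 living GFP- cells were collected for each array. The 4 groups of fraction and stage held 2 arrays each, which the labels call biological replicates 1 and 2. Whether the embryos were pooled, and whether a replicate number stands for the same embryos across groups, is not named in the labels.

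PDGF ligands are secreted dimers that pair receptor tyrosine kinases at the cell surface and so switch on their kinase activity. The alpha receptor, from Pdgfra, binds the A, B and C chains, whereas the beta receptor, from Pdgfrb, responds mainly to the B and D chains. In the early embryo Pdgfra is known as a gene of nascent and paraxial mesoderm, and Pdgfa as a gene of the neighbouring epithelia. Pdgfrb is best known in later cells around blood vessels, which respond to PDGF-B from endothelium.

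The values are log2 expression per probe set. Mesp1 served as a check of the sort: it read 9.75 and 10.03 in GFP+ and 5.64 and 6.26 in GFP- cells at E6.5, and 8.75 and 8.65 against 7.76 and 8.06 at E7.5. The fractions were therefore far apart in Mesp1 at E6.5 and closer at E7.5. Array medians were 4.20 to 4.23 in replicate 1 and 4.545 to 4.59 in replicate 2, and sorted values differed far less between arrays of 1 number (0.027 on average) than between numbers (0.229). The arrays thus look as if each replicate number was normalised on its own, which no label states. The part of scaling in a step between a replicate 1 and a replicate 2 array, or in a pass of the filter on 1 number only, was not tested. Changes within each replicate number are given for the members and most other genes named. Genes entered the tests if their probe set exceeded 4.38, the median of all values, on 2 or more arrays, which left 11706 genes. Of the members, 2 were tested, Pdgfrb and Pdgfb. With 50 cells and 2 arrays a group, sampling of cells and biological spread cannot be told apart. Fewer cells of a type and less RNA per cell cannot be told apart either.

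Pdgfrb was the only member above 4.38 on all 8 arrays. At E6.5 it read 5.97 and 6.42 in the GFP+ arrays and 4.95 and 5.49 in the GFP- arrays of replicates 1 and 2. At E7.5 it read 5.89 and 7.04 in GFP+ and 5.44 and 5.81 in GFP- cells. The lowest GFP+ array (5.89) lay above the highest GFP- array (5.81), by 0.081. These 2 arrays carry different replicate numbers, so this gap also holds any difference in their scaling. Among all genes tested, 1.23% had every GFP+ array above every GFP- array. The same order held within each of the 4 pairs of stage and replicate number, as it did for 9.1% of genes.

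**Figure D1:**
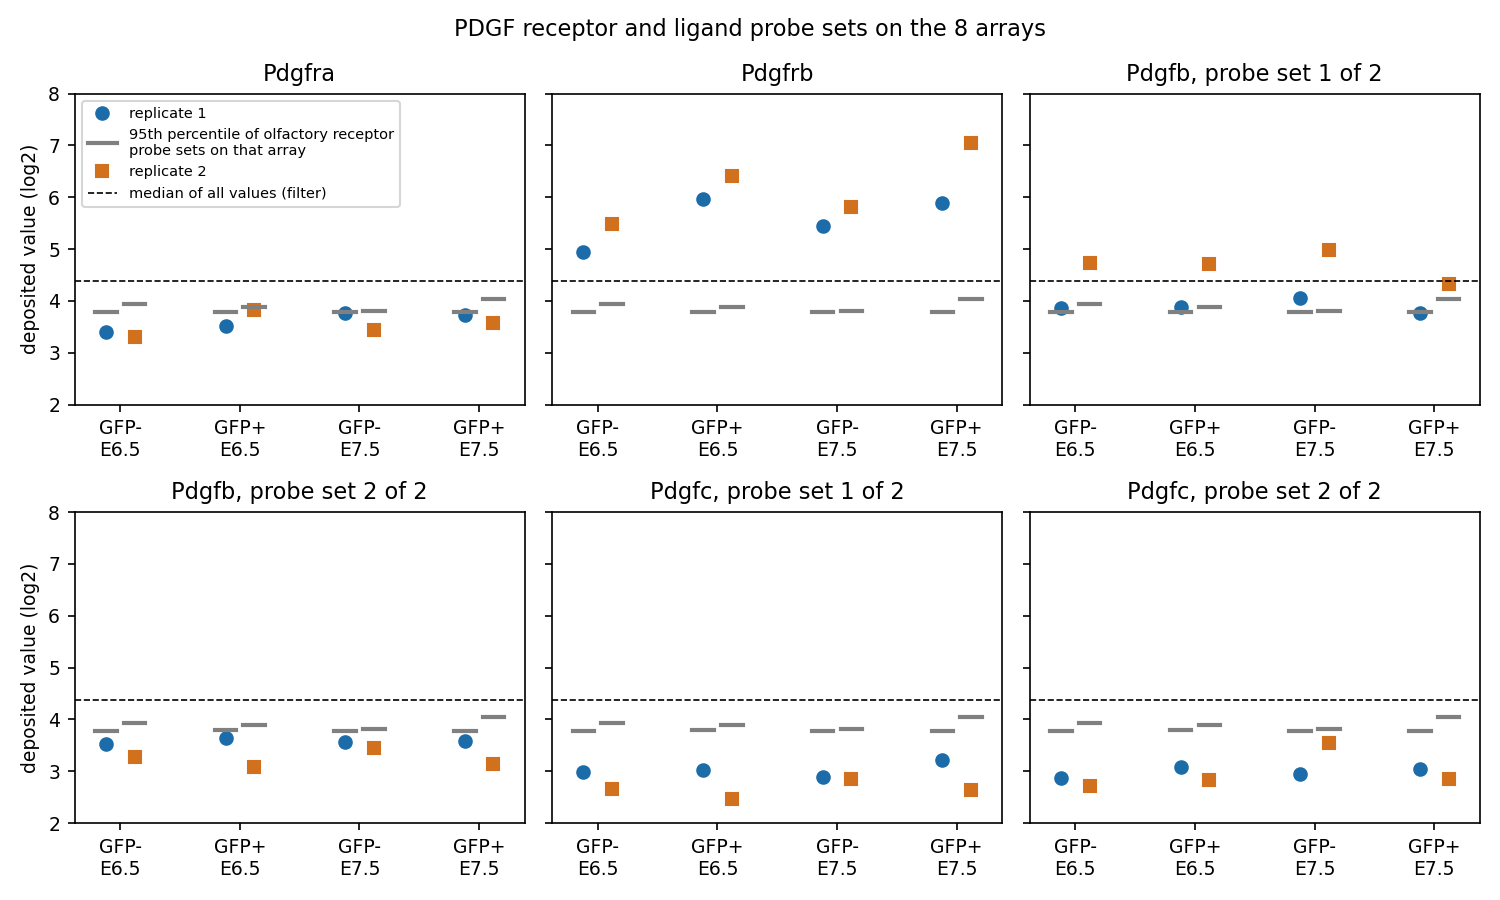
Deposited log2 value of each PDGF member probe set on the 8 arrays, by fraction and stage. Circles are replicate 1 and squares replicate 2, the dashed line is the filter value of 4.38, and each grey dash is the 95th percentile of 42 olfactory receptor probe sets on that array. The Pdgfrb points all lie above the dashed line, those of Pdgfra and Pdgfc all lie below the grey dashes, and probe set 1 of Pdgfb crosses the dashed line in replicate 2.

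The comparison of fractions asked whether cells with an active Mesp1 reporter differed in these genes from the other cells of the embryo. Averaged over the stages, Pdgfrb was 0.91 higher in GFP+ cells (SE 0.32, 1.88-fold), with 0.74 in replicate 1 and 1.08 in replicate 2. The 95% confidence interval was 0.16 to 1.66, before adjustment for the number of genes. It did not pass over all genes (limma adjusted p = 0.7), although its unadjusted p was 0.0239, as was true at that level of 5.47% of genes. An exact two-sided permutation of the fraction within stage gave p = 0.0556, the smallest that 4 against 4 arrays can give in this way. With every GFP+ array above every GFP- array no other value was possible, so this p restates that order. The permutation also took no account of the replicate number. With genes ordered by signed difference, the most GFP+ first, Pdgfrb ranked 178 among 11706. Genes lower in GFP+ cells, by however much, come after it in this order.

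Stage by stage, the difference in Pdgfrb was 0.98 at E6.5 (SE 0.45, limma adjusted p = 0.961), from 5.22 ± 0.38 in GFP- to 6.19 ± 0.32 in GFP+ cells (SD, n = 2). Both replicates gave nearly the same size, 1.02 and 0.93. At E7.5 it was 0.84 (SE 0.45, limma adjusted p = 1), from 5.62 ± 0.26 to 6.47 ± 0.82 (SD, n = 2). Here replicate 1 gave 0.45 and replicate 2 gave 1.24, and the difference was 0.27 without GFP+ E7.5 replicate 2 and 1.42 without GFP+ E7.5 replicate 1. The groups did not overlap at either stage, which was true, in this direction, of 14.8% of genes at E6.5 and 10.3% at E7.5. The change of this difference between the stages was -0.13 (SE 0.64, 95% confidence interval -1.64 to 1.37), with opposite signs in the replicates (-0.57 and 0.31).

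From E6.5 to E7.5, averaged over the fractions, Pdgfrb changed by 0.34 (SE 0.32), with 0.20 in replicate 1 and 0.47 in replicate 2, and 0.0495 to 0.63 when 1 array was left out. In GFP+ cells the change from E6.5 to E7.5 was 0.27 (SE 0.45), with -0.08 in replicate 1 and 0.63 in replicate 2. In GFP- cells it was 0.41 (SE 0.45), with 0.49 and 0.32. Its group means were ordered, from low to high, GFP- E6.5, GFP- E7.5, GFP+ E6.5 and GFP+ E7.5. Of the neighbours in this order, both GFP+ E6.5 arrays lay above both GFP- E7.5 arrays. The stages overlapped within each fraction: GFP- E7.5 replicate 1 (5.44) lay below GFP- E6.5 replicate 2 (5.49), and GFP+ E7.5 replicate 1 (5.89) lay below both GFP+ E6.5 arrays.

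Replicate 2 arrays read higher for Pdgfrb than replicate 1 arrays by 0.63, against a median of 0.01 over all probe sets and a middle range of -0.32 to 0.41. As a rank within its own array, the probe set stood above 73.5% and 72.4% of probe sets on the GFP+ arrays of replicate 1 at E6.5 and E7.5, and above 62.7% and 68% on the GFP- arrays. In replicate 2 the shares were 75.4% and 82.1% in GFP+ and 63.9% and 68.5% in GFP- cells. The lowest GFP+ rank was 72.4% and the highest GFP- rank 68.5%. The share of all probe sets with such an order of ranks was not computed. The part of array scaling in the Pdgfrb difference was not tested.

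**Figure D2:**
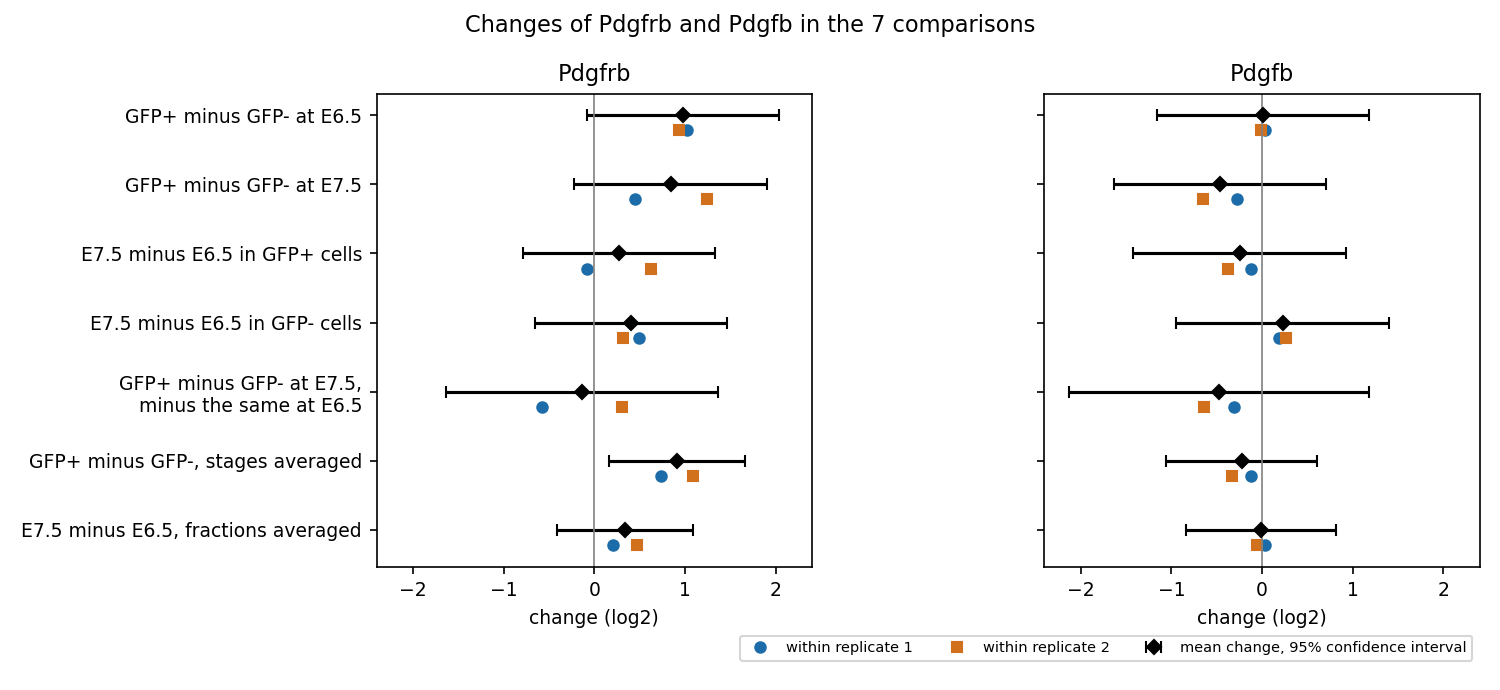
Changes of Pdgfrb and Pdgfb (log2, horizontal axis) in the 7 comparisons of the fit over 8 arrays, which takes no account of the replicate number. Diamonds with bars are the mean change and its 95% confidence interval, and circles and squares are the changes within replicates 1 and 2. For Pdgfrb the interval lies above 0 in the comparison averaged over stages (0.16 to 1.66), and for Pdgfb all 7 intervals span 0.

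Marker lists of other cell types were read beside Pdgfrb, as levels with no test of the list. The mean log2 level of 9 tested of 10 streak and nascent mesoderm markers ranged from 7.93 to 9.30 in GFP+ and from 5.98 to 7.34 in GFP- arrays. This list includes Mesp1, whose reporter was used for the sort, so its separation is not independent of the sort. For 10 of 10 extraembryonic ectoderm markers the ranges were 4.63 to 4.91 and 5.42 to 7.23, again without overlap. Those of 10 of 10 epiblast markers overlapped (6.57 to 8.20 and 8.03 to 9.57), although GFP- was the higher in all 4 pairs of stage and replicate number. Those of 12 of 12 visceral endoderm markers overlapped too (4.28 to 4.99 and 4.83 to 7.81), and at E7.5 in replicate 1 GFP+ (4.99) was above GFP- (4.83). Endothelial and blood progenitor markers, 8 of 10 tested, overlapped (4.79 to 6.07 and 4.45 to 6.34). Of this list, Cdh5 and Tek lay below the filter, whereas Pecam1, Kdr, Tal1, Etv2, Lmo2, Gata1, Gata2 and Runx1 were tested. Paraxial mesoderm markers (10 of 10 tested) ranged from 5.66 to 8.80 in GFP+ and from 4.61 to 7.49 in GFP- arrays. Definitive endoderm and node markers (8 of 10) ranged from 5.09 to 6.72 and from 6.45 to 7.41. Although these ranges overlapped, in all 4 pairs of stage and replicate number GFP+ was the higher for the paraxial list. GFP- was the higher in all 4 for the definitive endoderm and node list. Extraembryonic mesoderm markers (6 of 8; 4.83 to 8.41 and 4.83 to 8.76) and parietal endoderm markers (7 of 10; 7.34 to 8.48 and 6.27 to 8.13) overlapped. The part of cell composition in the Pdgfrb difference was not tested.

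Pdgfra, the receptor gene known for early mesoderm, gave no value above 4.38 on its single probe set. It read 3.51 and 3.83 in GFP+ and 3.40 and 3.30 in GFP- cells at E6.5, and 3.72 and 3.58 in GFP+ and 3.77 and 3.44 in GFP- cells at E7.5. The whole range, 3.30 to 3.83, was 0.53 wide. The difference between fractions at E6.5 was 0.32, with 0.11 and 0.53 in the replicates, and at E7.5 it was 0.05, with -0.04 and 0.14. In a fit without the filter the 95% confidence interval was -0.29 to 0.93 at E6.5 and -0.56 to 0.66 at E7.5 (limma adjusted p = 1 for each). The annotation ties this probe set to an expressed sequence tag, and those of Pdgfrb and Pdgfc to reference transcripts.

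To place such low values, 42 probe sets of olfactory receptor genes, whose products serve the sense of smell, were read on the same arrays. Their 95th percentile was 3.78 to 4.05 by array, and 1 of the 42 (2.38%) passed the filter, against 64.3% of the 28898 named probe sets. Pdgfra lay above this 95th percentile on 0 of 8 arrays and Pdgfrb on 8 of 8. The brightness of a probe set depends on its sequence as well as on its transcript, so this places the signal and gives no amount of RNA. A Pdgfra transcript that this probe set reads poorly would not be seen here, and the intervals cover only the signal measured.

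Among the ligands, Pdgfb, whose product activates the beta receptor and draws pericytes to vessels, had 1 of its 2 probe sets tested. That probe set read 3.89 and 4.71 in GFP+ and 3.86 and 4.72 in GFP- cells at E6.5, and 3.77 and 4.33 in GFP+ and 4.05 and 4.99 in GFP- cells at E7.5. Its replicate numbers lay apart, in which the part of scaling was not tested: the means were 3.89 in replicate 1 and 4.69 in replicate 2. All 3 arrays above 4.38 belonged to replicate 2, so it passed the filter through 1 replicate number. The difference between fractions was 0.01 at E6.5 (SE 0.50, limma adjusted p = 1) and -0.46 at E7.5 (SE 0.50, limma adjusted p = 1), with -0.28 and -0.65 in the replicates at E7.5. This fit takes no account of the replicate number. With the replicate number as a block the SE was 0.19 at both stages. The E7.5 difference then had a limma p of 0.0511 unadjusted, where 6.45% of all genes were under 0.05, and 0.765 adjusted. From E6.5 to E7.5 this probe set changed by -0.25 in GFP+ and 0.23 in GFP- cells. The difference between those changes was -0.47 (SE 0.71, limma adjusted p = 1), and -0.944 to -0.0055 when 1 array was left out. The other Pdgfb probe set spanned 3.09 to 3.64, below the olfactory reference on 8 of 8 arrays. It read higher in replicate 1 (3.58) than in replicate 2 (3.24), the opposite of the first.

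Pdgfc, which encodes a ligand of the alpha receptor that is secreted in a latent form, had no array above the filter. Its probe sets spanned 2.46 to 3.22 and 2.72 to 3.55, and both lay below the olfactory reference on 8 of 8 arrays. On the brighter probe set the difference between fractions was 0.16 at E6.5 and -0.30 at E7.5. The latter rested on GFP- E7.5 replicate 2 (3.55), the highest Pdgfc value, and was 0.00 without that array. On the other probe set the differences were -0.08 and 0.06. No direction was shared by both probe sets in both replicates at either stage.

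Counted together, 0 of the 2 tested members passed in any of the 7 comparisons. The share of all genes that passed was 0.0769% between the fractions at E6.5 and 0% at E7.5. It was 0.0256% between the stages in GFP+ cells, 0.094% in GFP- cells, 0% for the interaction, 0.00854% for the fractions averaged and 0.256% for the stages averaged over fractions. In this fit, which takes no account of the replicate number, an unadjusted p under 0.05 was found for 1 member, Pdgfrb, in the comparison of fractions averaged over stages, and for 0 in the others. Of all genes, 5.73% and 2.41% were under it between fractions at E6.5 and E7.5, 3.85% and 6.48% between stages in GFP+ and GFP- cells, 2.71% for the interaction and 7.2% for the stages averaged over fractions. A p that misses the threshold does not show that a member was the same in the groups.

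The remaining genes around the receptors were read from 7 lists with 84 genes, of which 74 had a named probe set and 61 were tested. None passed in any comparison by limma, where the lowest adjusted p was 0.124. Between fractions, 8 of them at E6.5 (13.1%, against 5.73% of all genes) and 0 at E7.5 (against 2.41%) had an unadjusted limma p under 0.05. Yes1, which exceeded the filter value only on GFP+ arrays, is among the 8, so this share is not independent of the filter. The fourth ligand gene, Pdgfd, and Pdgfrl, which encodes a receptor-like protein without a kinase, lay below the filter, as did Plat and Plau, whose proteases can release latent PDGF chains.

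Adaptors and enzymes that dock on the activated receptors had 16 of 20 genes tested, with 0 higher and 0 lower at E6.5 and a median difference of 0.10 (all genes 0.01). The list's replicate medians were 0.28 and 0.08. Yes1, a kinase gene of the Src family, read 4.78 and 4.85 in GFP+ and 3.49 and 3.31 in GFP- cells. It exceeded 4.38 on 3 arrays, all GFP+, so it was tested only through the fraction where it is high. Its GFP- values lay below the olfactory reference, so no size is given, and its other probe set, below the filter, gave -0.33. The docking protein gene Gab1 was at -1.02 (SE 0.81), with 0.46 and -2.50 in the replicates, and Pik3r1, a regulatory subunit of phosphoinositide 3-kinase, at 0.75 (SE 0.54; 0.91 and 0.60 in the replicates). Downstream kinases and transcription mediators had 10 of 16 tested, and 9 of the 10 differences were above 0, as were 51.9% over all genes, with a median of 0.35 (0.33 and 0.25 in the replicates), although 0 passed. At E7.5, 6 of the 10 were above 0 (48% over all genes), and the replicate medians were -0.000805 and -0.04. Srf, a transcription factor that serves PDGF responses, was at 0.77 (SE 0.53; 0.60 and 0.94 in the replicates) and Braf at 0.60 (SE 0.30; 0.57 and 0.64). At E7.5 Braf was at 0.64 (SE 0.30) and Srf at 0.55 (SE 0.53), with positive values in both replicates for each gene. Other probe sets of Braf gave 0.59 and -0.60 at E7.5, so its direction depended on the probe set there.

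Brakes on the receptors had 6 of 8 genes tested, with 0 higher and 0 lower and a median of 0.36 at E6.5 (0.41 and 0.01 in the replicates). Ptprj encodes a receptor phosphatase known to remove phosphate from the beta receptor. The GFP+ arrays at E6.5 were at 7.46 and 8.12 and the GFP- arrays at 5.39 and 4.995, which are 2.60 apart on average (SE 0.42, limma adjusted p = 0.125). At E7.5 the GFP+ arrays were at 8.38 and 7.51 and the GFP- arrays at 7.97 and 7.45, or 0.24 apart (SE 0.42). On this probe set the GFP- E6.5 arrays stood apart from the other 6. On the other Ptprj probe set that passed the filter they did not: GFP+ was below GFP- in replicate 1 (5.29 and 5.53) and above it in replicate 2 (6.37 and 4.10). The remaining probe set, below the filter, gave 0.02.

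Genes induced at once by growth factors had 15 of 16 tested, with 0 higher and 0 lower at E6.5 and a median of -0.21 (-0.20 and -0.14 in the replicates). Of the 15 differences, 4 were above 0, against 51.9% over all genes. Tiparp, a PDGF-induced gene in other cells, was at 1.79 (SE 0.46, limma adjusted p = 0.351), with 2.16 and 1.43 in the replicates and 0.50 and 1.13 on further probe sets. Plekha1 was at -1.12 (SE 0.44; -0.93 and -1.32 in the replicates) and Egr1, an immediate early transcription factor gene, at 1.07 (SE 0.52; 1.22 and 0.91). Genes that process PDGF or hold it in the matrix had 5 of 8 tested, with 0 higher and 0 lower and a median of -0.13 at E6.5 (-0.05 and -0.27 in the replicates). Lrp1, an endocytic partner of the beta receptor, was at 0.46 (SE 0.53; 0.81 and 0.10 in the replicates), but its other probe set gave -0.43, so it had no settled direction. The protease gene Furin was at -0.32 (SE 0.39), and Sparc, whose matrix protein binds PDGF-B, at -0.25 (SE 0.30), with -0.87 on its other probe set.

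The related receptors and ligands of the KIT and VEGF families had 9 of 14 genes tested, with 0 higher and 0 lower and a median of -0.02 at E6.5 (-0.07 and 0.10 in the replicates). Kdr, a VEGF receptor gene of early mesoderm, read 6.73 and 8.49 in GFP+ and 4.31 and 5.11 in GFP- cells. The difference was 2.90 (SE 0.80, limma adjusted p = 0.413). Flt1, another VEGF receptor gene, was at 1.24 (SE 0.53), with 1.81 and 0.66 in the replicates and 0.60 and -0.21 on other probe sets. Vegfa was at -1.07 (SE 0.43), with -1.58 and -0.55 in the replicates and -0.20 on its other probe set. At E7.5 Kdr was at 0.22, and the largest difference was in the ligand gene Kitl, at -1.02 (SE 0.47). Kitl read 5.27 and 5.12 in GFP+ and 5.66 and 6.76 in GFP- cells there. Its other probe sets past the filter gave -0.66 and 0.12, and the one below it 0.07, so its direction depended on the probe set.

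At E7.5 the list medians between fractions lay from -0.13 (processing and matrix genes) to 0.11 (downstream kinases and transcription mediators), where the median of all genes was -0.01. The replicate medians of the processing and matrix genes had opposite signs, 0.38 and -0.65. Ptpn2, which encodes a phosphatase that acts on PDGF receptors, was at -0.89 (SE 0.57), with -0.83 and -0.96 in the replicates. Its other probe sets past the filter gave -0.41 and -0.21, and the one below it 0.11. Gab1 was at -0.91 (SE 0.81) and the VEGF co-receptor gene Nrp1 at -0.62 (SE 0.74). The replicates had opposite signs for both, 0.34 and -2.17 for Gab1 and 0.97 and -2.21 for Nrp1. Kdr split likewise, at 1.65 in replicate 1 and -1.20 in replicate 2.

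Between the stages, averaged over fractions, 0 of the 61 tested pathway genes passed, and 10 (16.4%, against 7.2% of all genes) had an unadjusted p under 0.05. The largest differences were in Nrp1, from 4.59 to 6.31 in GFP+ and from 4.73 to 6.93 in GFP- cells (1.96 on average, SE 0.52, limma adjusted p = 0.292), and in Kdr (1.96, SE 0.57, limma adjusted p = 0.367). For Nrp1 the GFP+ change was 3.11 in replicate 1 and 0.33 in replicate 2, and the GFP- change 2.15 and 2.27. For Kdr the GFP- arrays differed by 3.23 and 3.36 in the replicates, whereas the GFP+ arrays had opposite signs, 2.46 and -1.22. Ptprj was 1.34 higher at E7.5 (SE 0.30), with the lowest limma adjusted p of the pathway genes in this comparison, 0.2. Its change was 2.58 and 2.45 in GFP- cells and 0.92 and -0.61 in GFP+ cells. On the other Ptprj probe set past the filter, the GFP- change had opposite signs in the replicates. There the GFP- arrays read 5.53 and 5.46 at E6.5 and E7.5 in replicate 1, and 4.10 and 6.94 in replicate 2. Kitl was 1.14 higher at E7.5 (SE 0.33), with 1.10 and 1.18 in the replicates, and Vegfa 0.94 (SE 0.31). Vegfa changed by 1.63 in GFP+ and 0.26 in GFP- cells, and by 0.36 and 0.10 on its other probe set. Its GFP- arrays read 8.07 and 7.86 at E6.5 and E7.5 in replicate 1, and 7.91 and 8.63 in replicate 2. Fos, a classic early growth factor target, differed by 0.72 (SE 0.21) and Dusp6, whose phosphatase limits ERK signalling, by -1.20 (SE 0.53), each with its sign in both replicates.

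**Figure D3:**
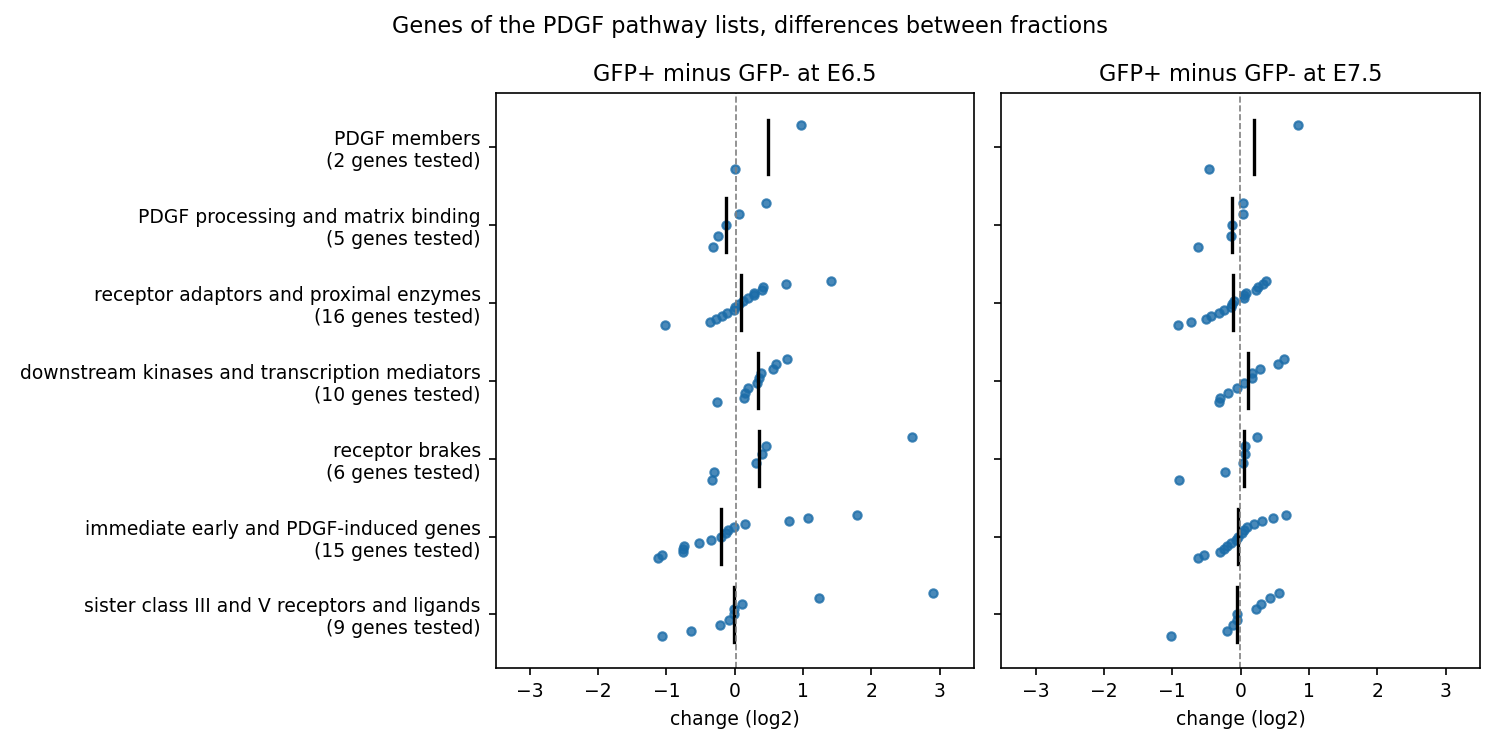
Differences between GFP+ and GFP- cells (log2, horizontal axis) at E6.5 and E7.5 for the tested genes of the PDGF members and the pathway lists. Each point is a gene, black bars are list medians, and the dashed line is the median of all genes. The points farthest right at E6.5 are Kdr (2.90) and Ptprj (2.60), and at E7.5 all points lie between -1.02 and 0.84.

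Genes with a pattern like that of Pdgfrb were ranked by the root mean square difference over the 8 arrays, with each gene centred within its replicate number. The 5 nearest were Ap5s1 (0.0852), Kctd6 (0.137), Pbk (0.156), Nqo2 (0.179) and Xxylt1 (0.179), where the median gene was at 0.577. Ap5s1, a subunit of an adaptor complex of membrane traffic, was 0.93 higher in GFP+ cells at E6.5 and 0.73 at E7.5. Kctd6 differed by 0.97 and 0.72, the mitotic kinase gene Pbk by 1.12 and 0.66, the quinone reductase gene Nqo2 by 1.03 and 0.97, and the xylosyltransferase gene Xxylt1 by 0.70 and 0.77. These genes were selected for this likeness, so their differences describe the selection. Pdgfb was not ranked because its group means spanned 0.46, less than the minimum of 1.

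**Figure D4:**
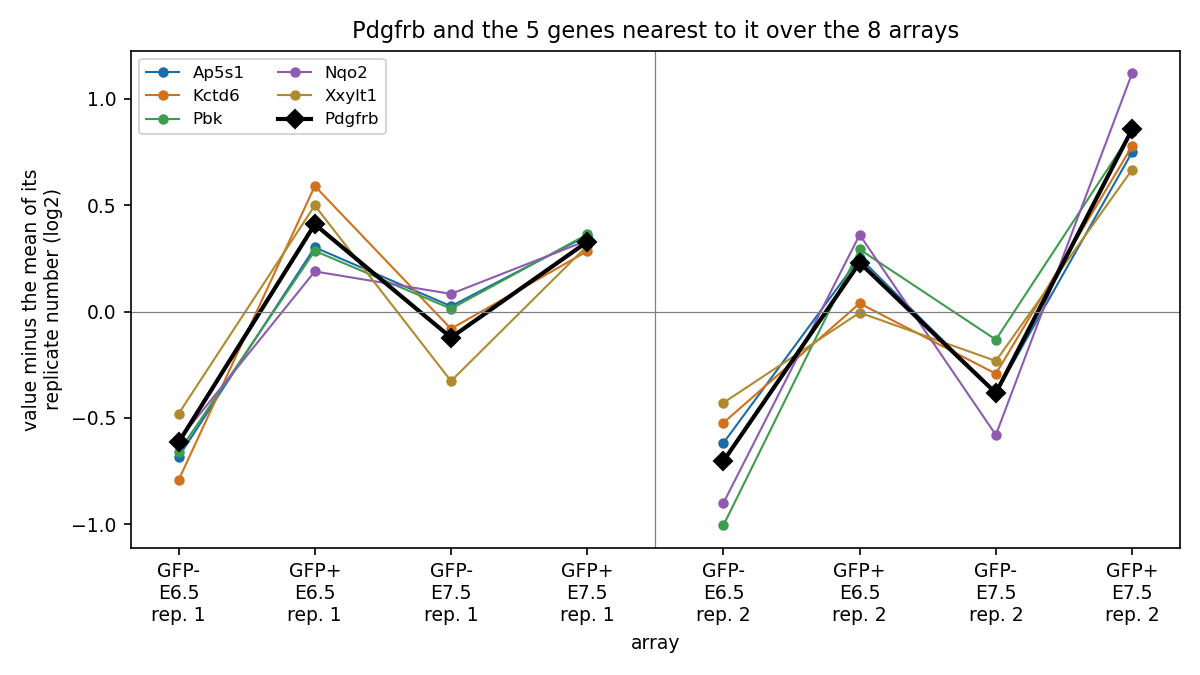
Pdgfrb (black diamonds) and the 5 genes nearest to it on each of the 8 arrays, as the value minus the mean of its replicate number (log2, vertical axis). In both replicates the GFP+ arrays of a stage lie above the GFP- array of that stage for all 6 genes.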

How the data were processed

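Per the submitters' processing notes, the authors summarised probes by RMA, and the deposited values are on the log2 scale. Neither a version of RMA nor a genome build is named in the sources used here, so no coordinates are printed. Per the labels, RNA of 50 cells was amplified over 25 PCR cycles before hybridization. The members, lists and tests were chosen with earlier results of these data known, and the olfactory receptor reference was added after the values were seen.

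Names came from probe sets with 1 symbol (28898 of 45141). For a gene with several probe sets past the filter, the one with the highest mean over all arrays was used. limma 3.58.1 in R 4.3.3 (lmFit, eBayes) was fitted to 11706 genes on 8 arrays with 1 mean a group, 4 residual and 3.21 prior degrees of freedom. Benjamini-Hochberg adjustment ran over all genes in each of 7 comparisons, with a threshold of 0.05, two-sided. The scripts were tested on simulated data. Named were all members, up to 3 list genes with the largest change in a comparison described, and the 5 genes most like a tested member whose group means spanned over 1. Alternatives were the replicate number as a block, other filters, probe set rules, scalings and array subsets, an intensity trend, and leaving out each array. The labels call the arrays biological replicates. The limma p values set a difference against the spread between the arrays of a group, pooled over groups and moderated over all genes. Without the block, that spread also holds any offset between the replicate numbers. No sequence is printed.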

Additional observations from a re-analysis of the deposited data

How the results depend on the processing

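Neither tested member passed in the reported fit or under any alternative run, which says nothing about stability. The Pdgfrb difference between fractions averaged over stages kept its direction in all 16, at 0.62 to 1.20 when 1 array was left out and 0.91 to 0.94 otherwise (limma adjusted p = 0.153 to 1). The lowest came with the replicate number as a block (0.91, SE 0.18). Its unadjusted limma p was 0.00257, where 10.7% of all genes were under 0.05. No label states that the numbers pair the arrays. Deviations were correlated between arrays of 1 number (r from 0.401 to 0.532), and the array distributions also differed by number. With the block, Pdgfrb also had an unadjusted limma p of 0.00899 at E6.5 (SE 0.25) and 0.0166 at E7.5 (SE 0.25), where 10.8% and 6.45% of all genes were under 0.05. Leaving out 1 array gave Pdgfrb 0.71 to 1.25 at E6.5 and 0.27 to 1.42 at E7.5, -0.31 to 0.85 between stages in GFP+ and 0.14 to 0.68 in GFP- cells, 0.0495 to 0.63 for the stages averaged and -0.71 to 0.44 for the interaction. For Pdgfb it gave -0.42 to 0.44 at E6.5, -0.93 to 0.00474 at E7.5, -0.66 to 0.16 between stages in GFP+ and -0.24 to 0.70 in GFP- cells, -0.944 to -0.0055 for the interaction, -0.46 to 0.00748 for the fractions averaged and -0.25 to 0.22 for the stages averaged (0.0124 with quantile normalization over all arrays, against -0.01). Pdgfb was not tested under the stricter filter, which it failed.

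Counts of all genes called moved more. Between fractions at E6.5 there were 9 (8 up, 1 down), against 30 with the replicate block, 25 with an intensity trend, 19 (13 up, 6 down) with arrays centred, 16 (9 up, 7 down) with quantile normalization, 4 with each probe set tested alone, 0 with only the arrays compared, and 0 to 1 without 1 array. At E7.5 there were 0 throughout (282 at an unadjusted p under 0.05, limma). Between stages in GFP+ cells 3 became 8 (centred), 0 (no filter, or only the arrays compared) and 0 to 3 without 1 array. In GFP- cells 11 became 39 (block), 34 (trend), 30 (centred), 26 (quantile), 17 (mean of probe sets), 4 (only the arrays compared) and 3 to 10 without 1 array. The interaction gave 0, and 2 with the trend. Fractions averaged gave 1 up and 0 down, against 8 (block), 23 (trend), 18 (centred, 11 up and 7 down), 10 (quantile, 7 up and 3 down), 4 (no filter), 0 (mean of probe sets) and 0 to 1 without 1 array. Stages averaged gave 30, against 94 (block), 74 (trend), 56 (centred), 50 (quantile) and 6 to 15 without 1 array. The cause of these moves was not tested. No signal over background per probe set was used here, which limits every size below 4.38.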
